A study of Mus musculus with 6 samples.

Results

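Complex I, the NADH dehydrogenase at the entry of the mitochondrial respiratory chain, is encoded largely by nuclear genes whose symbols begin with Nduf. Members were the rows of the deposited gene-count table whose Ensembl identifier belongs to a protein-coding gene of GENCODE release M21 with such a symbol, except Ndufa4 and Ndufa4l2, which are not complex I subunits. The rule names 44 genes and 43 of them had a row among 17068, as 7 core subunits, 28 supernumerary subunits and 8 assembly factors of the Ndufaf series. Ndufa13 was not analysed here.

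The study asked how the transcription factor Foxp1 acts in the embryonic mouse cortex, and sequenced bulk RNA of lateral cortex at E12.5. All 6 samples came from female c57/bl6 embryos with at least 1 floxed Foxp1 allele. Control 1, 2 and 4 were Foxp1 fl/+ and Control 3 was Foxp1 fl/fl, all Cre negative, and both samples labelled Foxp1cKO were Foxp1 fl/fl with Emx1Cre, so that only Control 3 shared their Foxp1 genotype. Emx1Cre acts in progenitors of the dorsal telencephalon and in their progeny, and the dissected tissue also holds vessels, blood and meninges. Which litter a sample came from is not given in the sources used here, so that p-values measure the spread between these samples only.

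Complex I takes electrons from NADH, passes them along a chain of iron-sulfur clusters to ubiquinone, and uses the energy to pump protons out of the mitochondrial matrix. Its core subunits do the chemistry and are conserved from bacteria, with the hydrophilic ones encoded in the nucleus and the membrane-bound proton pumps in mitochondrial DNA. Supernumerary subunits surround the core, and assembly factors help to build the complex without staying in it. Cortical progenitors rely much on glycolysis, and mitochondrial respiration gains weight as neurons mature.

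Counts summed to 50076008 in the library labelled Foxp1cKO 1, the shallowest, and to at most 78346979 in the others. Levels are given as CPM, the counts per 1000000 reads after TMM scaling of the libraries. Foxp1 itself had 59.7, 60.8, 71.2 and 79.1 CPM in Control 1 to 4, and 83.2 and 76.8 CPM in the libraries labelled Foxp1cKO 1 and 2. Foxp1 was thus not lower under the knockout label, although a whole-gene count cannot resolve a deletion of single exons. The names Foxp1cKO 1 and Foxp1cKO 2 therefore stand for the labels only. The paper cites its earlier work for a significant loss of Foxp1 protein before this stage, which RNA counts do not measure. Of the markers of dorsal telencephalon, Emx1, Emx2 and Lhx2 were all detected, with summed levels of 368 to 870.2 CPM in the controls and 582 to 655 CPM in the libraries labelled Foxp1cKO. Sox2 and Tubb3 were not analysed here.

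Complex I transcripts were slightly lower in the libraries labelled Foxp1cKO across the 3 classes, but no single gene passed the test. Of 43 members, 37 had a log2 fold change below 0 (86.0%, against 50.7% of all genes), with a median of -0.15 against -0.0044 over all genes. None was called at an adjusted p under 0.05 with edgeR's quasi-likelihood test and Benjamini-Hochberg adjustment over all genes, where 0.152% of genes were called, and the smallest adjusted p of a member was 0.242. With DESeq2's test, which called 503 of all 17068 genes, 2 of the 43 members were called, Ndufaf4 lower and Ndufv3 higher. At an unadjusted p under 0.05, 13 members were lower (30.2%, against 6.50% of all genes) and 1, Ndufv3, was higher, against 6.53% of all genes. Both libraries labelled Foxp1cKO lay below every control in 17 members (39.5%, against 13.1% of all genes) and above every control in 2, Ndufv3 and Ndufb4, against 11.5% of all genes. Members share libraries and vary together, so these counts are not 43 separate observations.

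**Figure D1:**
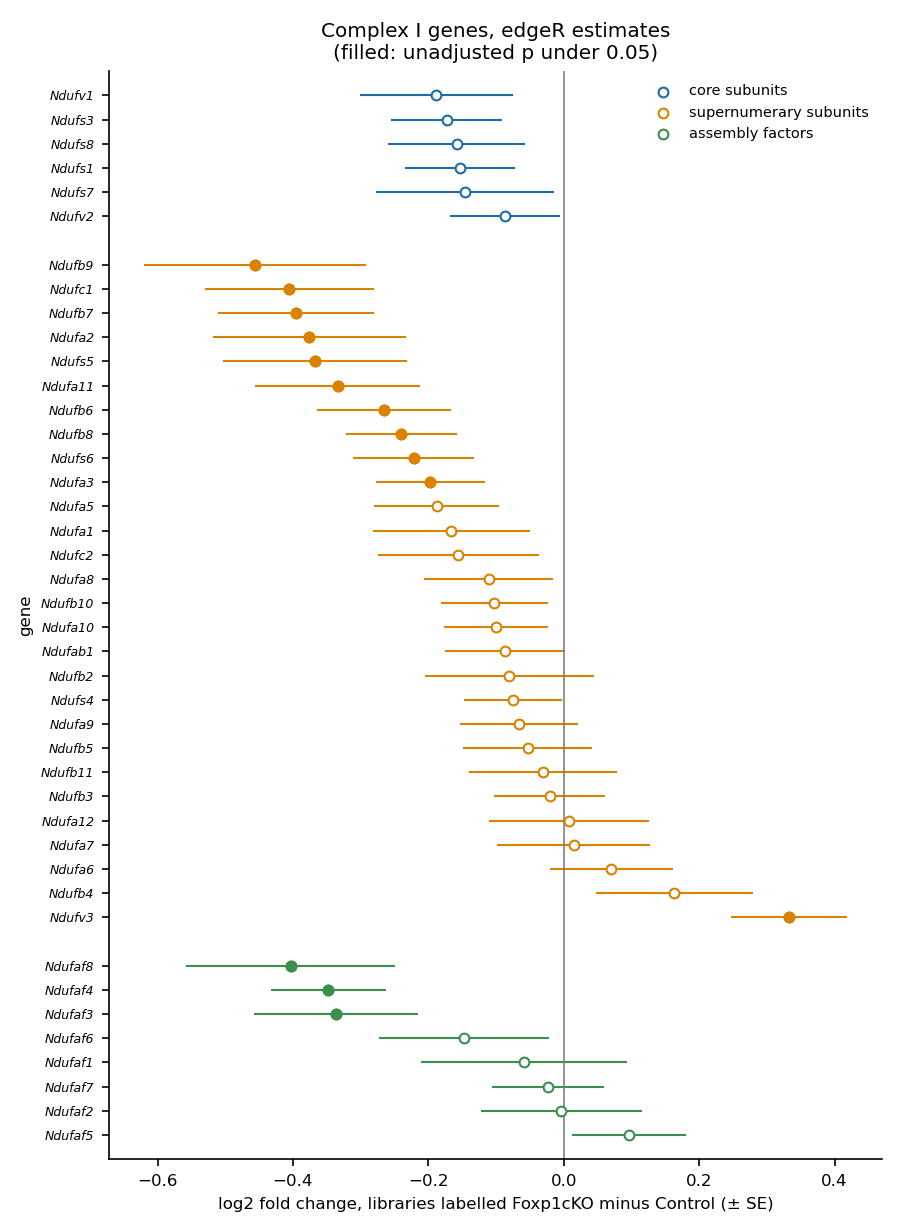
Each point is the edgeR log2 fold change of 1 complex I gene (x axis, libraries labelled Foxp1cKO minus Control, bars ± SE), with genes on the y axis grouped into core (blue), supernumerary (orange) and assembly (green) and filled where the unadjusted p was under 0.05. The 6 core subunits shown sit together between -0.19 and -0.087, whereas the supernumerary subunits spread from -0.46 to 0.33.

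The difference was uneven between the replicates. The library labelled Foxp1cKO 1 was below Foxp1cKO 2 in 37 of 43 members, with a median log2 CPM difference of -0.15, and was the lowest of all 6 libraries in 30 members. Over all 17068 genes, Foxp1cKO 1 was below Foxp1cKO 2 in 8566 and the lowest library in 3225. Relative to the control mean, the median log2 CPM difference of the members was -0.23 in Foxp1cKO 1 and -0.084 in Foxp1cKO 2. Control 4 was the highest library in 21 members and the lowest in none, whereas over all genes it was the highest in 4181 and the lowest in 3551. Against Control 3, the control that is also Foxp1 fl/fl, Foxp1cKO 1 was lower in 33 members and Foxp1cKO 2 in 25, with median log2 CPM differences of -0.15 and -0.036. Of all genes, 49.4% were lower in Foxp1cKO 2 than in Control 3, and a similar share in Foxp1cKO 1. The 25 of 43 members of Foxp1cKO 2 were thus not far above the share of all genes.

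Without Foxp1cKO 1, 31 of 43 members were lower, the median log2 fold change was -0.086, and only Ndufaf4 remained lower at an unadjusted p under 0.05 beside Ndufv3 that remained higher. Without Foxp1cKO 2 the median was -0.25 and 15 members were lower at that threshold, 9 of them among the 13 above. The count fell to 6 without Control 1 and to 4 without Control 2. Calls over all genes at an adjusted p under 0.05 in edgeR's test fell there too, from 26 to 6 and to 2. The share of all genes at the unadjusted threshold was not counted with a library left out. With 1 library left under the knockout label, that library is assumed to vary like the controls.

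**Figure D2:**
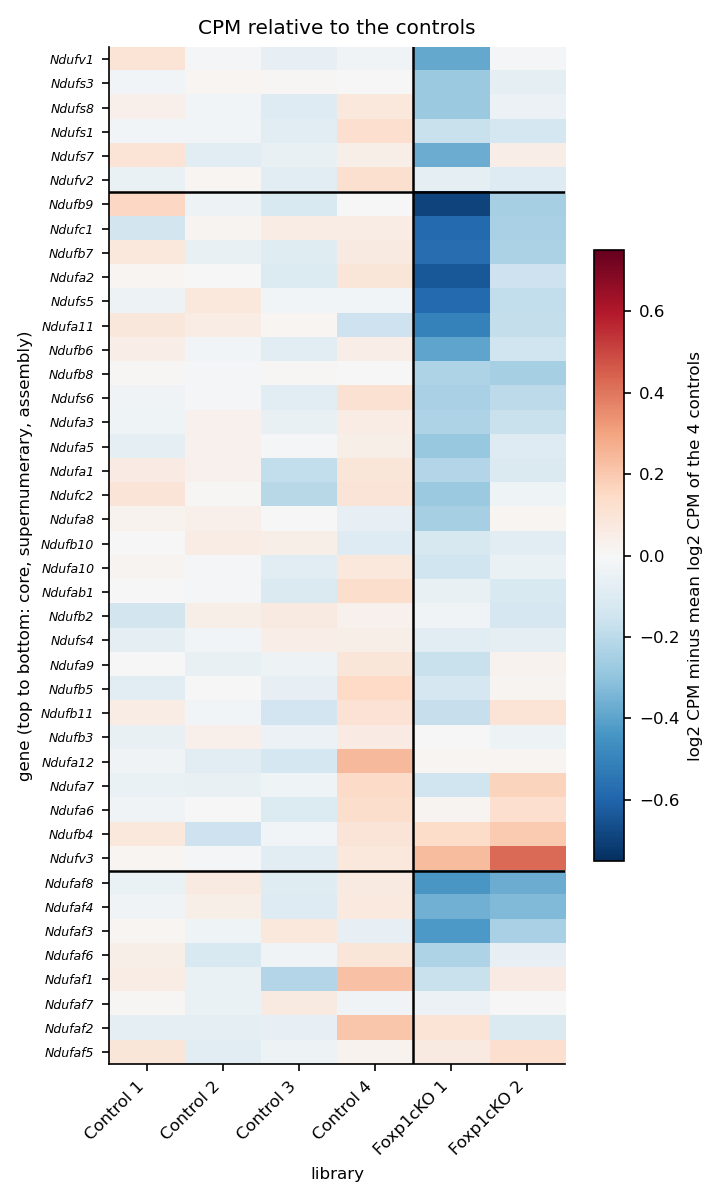
Colour shows the log2 CPM of each complex I gene (rows) in each library (columns) minus the mean log2 CPM of the 4 controls. The column of Foxp1cKO 1 is the bluest, Foxp1cKO 2 is paler, and Ndufv3 stands out in red in both.

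The mean log2 CPM of the core genes was 6.11 ± 0.0524 in the controls (SD, n = 4), with 5.86 in Foxp1cKO 1 and 6.06 in Foxp1cKO 2. Foxp1cKO 2 lay above the lowest control, Control 3, at 6.05. For the supernumerary genes the mean was 5.15 ± 0.0478 in the controls, 4.92 in Foxp1cKO 1 and 5.09 in Foxp1cKO 2, the latter just below the lowest control at 5.10. Assembly factors averaged 4.17 ± 0.0559 in the controls, 3.99 in Foxp1cKO 1 and 4.06 in Foxp1cKO 2, both below the lowest control at 4.12.

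The classes kept nearly the same distances in every library. The core mean exceeded the supernumerary mean by 0.95 to 0.99 log2 CPM in the controls, and by 0.93 and 0.96 in the libraries labelled Foxp1cKO. The assembly mean minus the supernumerary mean was -1.01 to -0.96 in the controls, and -0.94 and -1.04 in Foxp1cKO 1 and 2. The differences between group means were -0.16 for core, -0.14 for supernumerary and -0.15 for assembly genes. These 3 differences of means lay closer to each other than the SD of any class in the controls. The median log2 fold changes lay farther apart, at -0.158 for core, -0.107 for supernumerary and -0.103 for assembly genes.

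**Figure D3:**
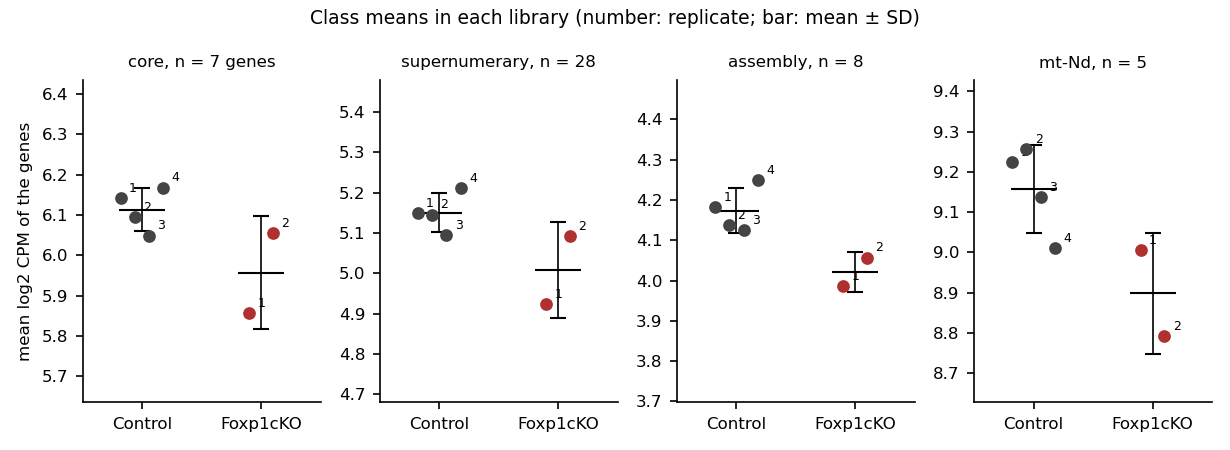
Points are the mean log2 CPM of a class of genes (y axis, each panel spanning the same range) in each library, numbered by replicate, with bars for the mean ± SD of 4 controls (grey points) and 2 libraries labelled Foxp1cKO (red points). Foxp1cKO 1 is the lowest library in the 3 nuclear classes, while Foxp1cKO 2 is the lowest for the 5 mitochondrially encoded mt-Nd genes.

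Compared per length of exon, core and supernumerary transcripts were similarly abundant and assembly factors rarer. The median level over genes was 27.7 ± 0.313 CPM per kb for core subunits and 28.4 ± 0.953 for supernumerary subunits in the controls (SD over libraries, n = 4), against 9.03 ± 0.519 for assembly factors and 4.54 over all genes. Ndufc2, a membrane-arm subunit, was highest with 76.2 ± 7.28 CPM per kb, followed by Ndufb11 with 66.1 ± 4.91, and the pair differed by less than the sum of their SDs. Ndufaf5 led the assembly factors with 17.6 ± 0.929. Ndufb2 was lowest with 1.98 ± 0.123, over an annotated exon union of 5628 bases that is far longer than its class median of 1356. With the longest transcript as length, the class medians were 50.5, 37.4 and 10.1 CPM per kb, so assembly factors stayed lowest and the order of core and supernumerary genes was set by the length used.

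**Figure D4:**
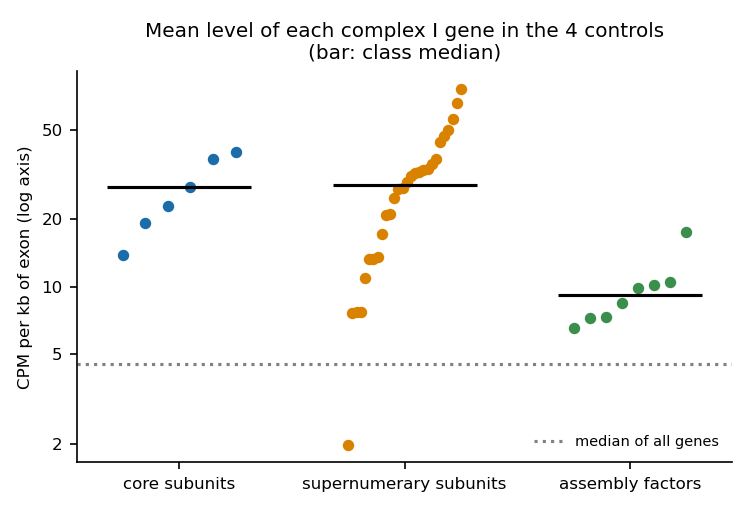
Points are the mean CPM per kb of exon of the complex I genes in the 4 controls (log y axis) by class (x axis), with 1 core gene not shown, bars are the class medians, and the dotted line is the median of all 17068 genes, 4.54. Assembly factors lie between 6.57 and 17.6, below most core and supernumerary subunits.

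Promoter sequences are shown for 4 members, chosen after their values were seen. Ndufaf4 had the smallest p of the members, Ndufb8 was lower with tight replicates, Ndufv3 was the only one higher at an unadjusted p under 0.05, and Ndufaf1, which differed little, was the only one with the forkhead motif searched. They are the bases before the RefSeq start in GRCm38.p6, 5′ to 3′ on the gene's strand, up to 250 bases and cut where an exon of another protein-coding gene begins. The stretches are chr4:24897833-24898082, plus strand for Ndufaf4, chr19:44555443-44555692, minus strand for Ndufb8, chr17:31519981-31520114, plus strand for Ndufv3 and chr2:119662835-119663084, minus strand for Ndufaf1. Capitals mark matches to the motifs described after them.

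Ndufaf4: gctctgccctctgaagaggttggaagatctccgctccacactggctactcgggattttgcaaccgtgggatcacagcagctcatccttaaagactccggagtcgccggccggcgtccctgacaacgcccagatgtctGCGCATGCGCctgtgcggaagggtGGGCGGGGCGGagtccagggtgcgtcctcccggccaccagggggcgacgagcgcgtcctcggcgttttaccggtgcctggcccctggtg
Ndufb8: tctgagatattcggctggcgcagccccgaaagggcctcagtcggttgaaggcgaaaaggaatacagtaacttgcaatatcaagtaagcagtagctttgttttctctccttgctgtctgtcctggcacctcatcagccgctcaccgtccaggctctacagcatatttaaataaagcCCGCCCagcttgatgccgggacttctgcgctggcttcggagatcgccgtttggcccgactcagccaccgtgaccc
Ndufv3: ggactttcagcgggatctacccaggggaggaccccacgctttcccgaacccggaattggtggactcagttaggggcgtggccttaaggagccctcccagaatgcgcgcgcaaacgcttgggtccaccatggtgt
Ndufaf1: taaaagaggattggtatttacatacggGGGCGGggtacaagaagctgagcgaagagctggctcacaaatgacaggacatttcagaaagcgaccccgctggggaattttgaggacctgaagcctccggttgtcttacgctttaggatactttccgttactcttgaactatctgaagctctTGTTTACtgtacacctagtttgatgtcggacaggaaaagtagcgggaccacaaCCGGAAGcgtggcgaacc

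In the Ndufaf4 sequence the capitals are an NRF1 motif, which reads the same on both strands, and a pair of overlapping SP1 motifs. Ndufb8 holds an SP1 motif, Ndufaf1 an SP1, a forkhead and an ETS motif in that order, and the shown Ndufv3 stretch none of those searched, its SP1 match being in the part left out. Motifs were searched on both strands in the 250 bases before the start, in 40 windows of 38 members, with overlaps allowed. NRF1 and ETS factors (such as GABP) are known activators of nuclear genes for the respiratory chain. The NRF1 motif, GCGCATGCG, lay in 7.5% of the member windows (Ndufaf4, Ndufa11 and Ndufa8), against 2.58% of windows of genes in the table and 1.45% of all windows. The ETS motif, CCGGAAG, lay in 12.5% of member windows against 11.7% of table windows and 6.91% of all windows. SP1, GGGCGG, lay in 45% of them, against 54.1% and 32.7%.

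The hypoxia response core ACGTG lay in 15% of member windows against 20.6% of table and 16.6% of all windows, the forkhead motif TGTTTAC in 2.5% against 2.20% and 3.17%, and the ESRRA motif AAGGTCA in 7.5% against 2.90% and 4.08%. The YY1 motif, AAGATGGCG, was in no member window, against 0.981% of table and 0.606% of all windows. With 1 to 3 members behind several of these shares they are descriptions only.

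The core subunits form the path of the electrons in the matrix arm, and the 6 described had lower means in the libraries labelled Foxp1cKO. Ndufv1, which holds the flavin that accepts electrons from NADH, had 104, 96.2, 93.2 and 95.6 CPM in Control 1 to 4, and 74.7 and 96.1 CPM in the libraries labelled Foxp1cKO 1 and 2. Foxp1cKO 1 was far below every control, whereas Foxp1cKO 2 was within their range. Ndufv2, its iron-sulfur partner, had 82.6, 86.5, 80.8 and 93.05 CPM in Control 1 to 4, and 81.3 and 80.2 CPM in the libraries labelled Foxp1cKO 1 and 2, a log2 fold change of -0.087 ± 0.082 (SE), with the groups overlapping. Ndufs1, the largest subunit of the NADH-binding module, had 110.3, 110.2, 106 and 122 CPM in Control 1 to 4, and 99.5 and 102 CPM in the libraries labelled Foxp1cKO 1 and 2. Both libraries labelled Foxp1cKO lay below the lowest control, Control 3.

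Of the ubiquinone-binding module, Ndufs3, a core subunit, had 59.5, 61.1, 60.8 and 60.2 CPM in Control 1 to 4, and 49.7 and 57.4 CPM in the libraries labelled Foxp1cKO 1 and 2, and its controls were the tightest of the 6 core genes described. It had the smallest p of these 6, with a log2 fold change of -0.17 ± 0.082 and an adjusted p of 0.421 in edgeR's test. Ndufs7, which carries the last iron-sulfur cluster before ubiquinone, had 35.5, 31.2, 31.8 and 34.05 CPM in Control 1 to 4, and 25.5 and 34.3 CPM in the libraries labelled Foxp1cKO 1 and 2, and Ndufs8, another iron-sulfur protein, had 30.2, 29.1, 27.6 and 31.1 CPM in Control 1 to 4, and 24.3 and 28.5 CPM in the libraries labelled Foxp1cKO 1 and 2. In both genes Foxp1cKO 1 was lowest and Foxp1cKO 2 was inside the control range. None of the 6 was past an unadjusted p of 0.05, and their log2 fold changes ran from -0.19 to -0.087, a narrow range with 1 direction. Leaving out Foxp1cKO 1 turned the log2 fold change of Ndufs7 to 0.050, and the core median to -0.073.

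The supernumerary subunits differed most among themselves, with 23 lower and 5 higher, and 10 lower and 1 higher at an unadjusted p under 0.05. In the distal membrane arm, where protons are pumped farthest from the NADH site, Ndufb7 had 51.99, 47.4, 46.2 and 51.6 CPM in Control 1 to 4, and 33.1 and 41.8 CPM in the libraries labelled Foxp1cKO 1 and 2. Both libraries labelled Foxp1cKO were below every control, Foxp1cKO 1 the more so, and the log2 fold change was -0.40 ± 0.11 with an adjusted p of 0.280 in edgeR's test. Ndufb9, which binds the mitochondrial acyl carrier protein, had 15.3, 13.4, 12.7 and 13.7 CPM in Control 1 to 4, and 8.46 and 11.6 CPM in the libraries labelled Foxp1cKO 1 and 2. It had the largest difference of all members, -0.46 ± 0.16 (adjusted p = 0.337 in edgeR's test) and also the largest standard error. Ndufb6, a small membrane subunit, had 33.9, 32.3, 31.1 and 33.9 CPM in Control 1 to 4, and 24.96 and 29.6 CPM in the libraries labelled Foxp1cKO 1 and 2, a log2 fold change of -0.27 ± 0.099. Ndufb8 had 24.5, 24.1, 24.4 and 24.3 CPM in Control 1 to 4, and 20.7 and 20.5 CPM in the libraries labelled Foxp1cKO 1 and 2, tight in both groups and separated by a log2 fold change of -0.24 ± 0.082 (adjusted p = 0.316 in edgeR's test). Both libraries labelled Foxp1cKO were about equally low in this gene, unlike in most members.

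In the proximal membrane arm, Ndufc1 had 23.3, 25.9, 26.6 and 26.6 CPM in Control 1 to 4, and 17.1 and 21.6 CPM in the libraries labelled Foxp1cKO 1 and 2, with a log2 fold change of -0.41 ± 0.12 and an adjusted p of 0.289 in edgeR's test. Ndufs5, which lies on the intermembrane-space side, had 17.6, 19.2, 17.8 and 17.8 CPM in Control 1 to 4, and 12.1 and 15.9 CPM in the libraries labelled Foxp1cKO 1 and 2. Ndufa11, which also lies where complex I contacts complex III in supercomplexes, had 37.4, 36.7, 35.8 and 31.8 CPM in Control 1 to 4, and 24.9 and 31.3 CPM in the libraries labelled Foxp1cKO 1 and 2. In these 3 genes both libraries were below all controls, and Foxp1cKO 1 was the lower by far. Ndufa3 had 31.3, 32.7, 30.8 and 33.2 CPM in Control 1 to 4, and 27.3 and 28.5 CPM in the libraries labelled Foxp1cKO 1 and 2, a log2 fold change of -0.20 ± 0.080, with both libraries again below every control.

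In the matrix arm, Ndufa2, a subunit with a thioredoxin-like fold, had 32.2, 31.98, 29.8 and 34.1 CPM in Control 1 to 4, and 20.6 and 28.7 CPM in the libraries labelled Foxp1cKO 1 and 2. The drop to Foxp1cKO 1 was larger than the whole range of the controls, and Foxp1cKO 2 was just below it. Ndufs6, a zinc-binding subunit added late in assembly, had 29.1, 29.5, 28.2 and 32.1 CPM in Control 1 to 4, and 25.1 and 25.9 CPM in the libraries labelled Foxp1cKO 1 and 2, with both libraries alike and a log2 fold change of -0.22 ± 0.089. Ndufv3, an accessory subunit of the NADH-binding module, went the other way, with 43.7, 42.8, 40.9 and 45.6 CPM in Control 1 to 4, and 50.97 and 57.9 CPM in the libraries labelled Foxp1cKO 1 and 2. Its log2 fold change was 0.33 ± 0.086 (adjusted p = 0.251 in edgeR's test), and here Foxp1cKO 2 lay farther from the controls than Foxp1cKO 1. The log2 fold change of Ndufv3 was 0.22 to 0.42 with any 1 library left out, and its unadjusted p was above 0.05 without Foxp1cKO 2.

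Of the other higher supernumerary genes, Ndufb4 had 15.6, 13.2, 14.5 and 15.8 CPM in Control 1 to 4, and 16.2 and 16.9 CPM in the libraries labelled Foxp1cKO 1 and 2, above every control in both libraries but by a log2 fold change of only 0.16 ± 0.12 (unadjusted p = 0.203 in edgeR's test). Ndufa6, another binder of the acyl carrier protein, had 36.9, 37.4, 34.9 and 41.02 CPM in Control 1 to 4, and 37.97 and 40.9 CPM in the libraries labelled Foxp1cKO 1 and 2, with overlapping groups. Ndufa7 and Ndufa12 had log2 fold changes of 0.015 and 0.0070, whose signs turned with some single libraries left out. Seen by position in the complex, 12 of 16 matrix-arm genes were lower with a median log2 fold change of -0.15, all 8 proximal membrane-arm genes with -0.18, and 9 of 10 distal membrane-arm genes with -0.092. At an unadjusted p under 0.05 these arms had 2, 4 and 4 lower genes, and the matrix arm 1 higher gene.

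The 8 assembly factors split into 3 with differences among the largest of all members and 5 with smaller ones. Ndufaf4, which acts with Ndufaf3 early on the ubiquinone-binding module, had 32.6, 34.2, 31.1 and 34.9 CPM in Control 1 to 4, and 25.8 and 26.3 CPM in the libraries labelled Foxp1cKO 1 and 2. The libraries labelled Foxp1cKO were nearly equal and well below every control, giving the smallest p of the members (0.00455 unadjusted, 0.242 adjusted, edgeR's quasi-likelihood test) and a log2 fold change of -0.35 ± 0.085. Ndufaf3 had 13.4, 12.97, 13.98 and 12.7 CPM in Control 1 to 4, and 9.82 and 11.2 CPM in the libraries labelled Foxp1cKO 1 and 2, and a log2 fold change of -0.34 ± 0.12. Its groups also did not overlap. Ndufaf8, which stabilises the enzyme Ndufaf5, had 5.30, 5.75, 5.15 and 5.74 CPM in Control 1 to 4, and 4.05 and 4.23 CPM in the libraries labelled Foxp1cKO 1 and 2. It was the rarest member by count, with 204 reads in its lowest library, and differed by -0.40 ± 0.16 on the log2 scale.

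Ndufaf5, which modifies Ndufs7, did not follow Ndufaf8 and had 33.5, 29.7, 30.6 and 32.1 CPM in Control 1 to 4, and 32.9 and 34.4 CPM in the libraries labelled Foxp1cKO 1 and 2, the only assembly factor with a positive log2 fold change (0.096 ± 0.084). Ndufaf6 had 12.5, 11.2, 11.9 and 12.97 CPM in Control 1 to 4, and 10.3 and 11.6 CPM in the libraries labelled Foxp1cKO 1 and 2, with Foxp1cKO 2 inside the control range. Ndufaf7, a mitochondrial methyltransferase, had 25.6, 24.6, 26.6 and 24.97 CPM in Control 1 to 4, and 24.7 and 25.4 CPM in the libraries labelled Foxp1cKO 1 and 2, and differed by -0.023 ± 0.083. Ndufaf1, which acts in building the membrane arm, had 16.3, 15.1, 13.4 and 18.2 CPM in Control 1 to 4, and 13.9 and 16.3 CPM in the libraries labelled Foxp1cKO 1 and 2, and Ndufaf2, a late factor related to Ndufa12, had 28.7, 28.6, 28.9 and 34.9 CPM in Control 1 to 4, and 32.5 and 28.01 CPM in the libraries labelled Foxp1cKO 1 and 2. The groups overlapped in each of these 5 genes, and the sign of Ndufaf1 and of Ndufaf2 turned under other scalings or omissions.

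The proton-pumping core subunits encoded in mitochondrial DNA were represented by 5 of 7 genes, 4 of them lower, with a median log2 fold change of -0.34 and 3 at an unadjusted p under 0.05. The mt-Nd4 transcript had 670.5, 778, 685 and 685 CPM in Control 1 to 4, and 602 and 512 CPM in the libraries labelled Foxp1cKO 1 and 2, and mt-Nd5 had 1209, 1195, 1126 and 798 CPM in Control 1 to 4, and 878 and 714 CPM in the libraries labelled Foxp1cKO 1 and 2. mt-Nd6, the one on the other strand of the mitochondrial genome, had 62.3, 49.8, 49.2 and 50.01 CPM in Control 1 to 4, and 38.2 and 43.3 CPM in the libraries labelled Foxp1cKO 1 and 2. The order of the replicates differed from that of the nuclear genes: mt-Nd levels were lower in Foxp1cKO 2 than in Foxp1cKO 1 in 4 of 5 genes, mt-Nd6 being the exception. The mean log2 CPM of nuclear minus mitochondrial complex I genes was -4.14 to -3.82 in the controls, and -4.10 and -3.74 in Foxp1cKO 1 and 2. Nuclear and mitochondrial complex I transcripts thus did not vary in step between the replicates.

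Of other factors known for complex I assembly, 10 of 11 were in the table, 7 of them lower, with a median of -0.12. Foxred1, a flavoprotein, had 35.8, 33.96, 37.5 and 31.2 CPM in Control 1 to 4, and 27.5 and 28.96 CPM in the libraries labelled Foxp1cKO 1 and 2, the only one of them at an unadjusted p under 0.05. The genes set aside by the rule went apart. Ndufa4, a complex IV subunit despite its name, had 88.3, 89.5, 77.8 and 96.98 CPM in Control 1 to 4, and 62.6 and 80.5 CPM in the libraries labelled Foxp1cKO 1 and 2, a log2 fold change of -0.30 ± 0.13. Ndufa4l2, known as a target of hypoxia-inducible factors, had 1.42, 1.42, 0.974 and 1.68 CPM in Control 1 to 4, and 4.39 and 4.86 CPM in the libraries labelled Foxp1cKO 1 and 2, a log2 fold change of 1.75 ± 0.24 with an adjusted p of 0.0747 in edgeR's test. It was far above every control in both libraries and opposite to most members.

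The nuclear genes of the other respiratory complexes had medians of the same sign. The median log2 fold change was -0.22 for the 4 genes of complex II, all lower, -0.20 for 9 genes of complex III, all lower, -0.17 for 9 nuclear genes of complex IV, all lower, and -0.20 for complex V, with 16 of 17 lower. Complex V had 11 genes lower at an unadjusted p under 0.05, a larger share (64.7%) than the 30.2% of complex I, though neither was tested as a list. Atp5k, a subunit of ATP synthase, had the smallest adjusted p of these complexes, 0.179 in edgeR's test, with a log2 fold change of -0.48 ± 0.087. Mitochondrial ribosomal protein genes were lower in 65 of 75, with a median of -0.18. Of 12 regulators of mitochondrial genes 4 were lower, with a median of 0.043. Among them Ppargc1a, a coactivator of mitochondrial biogenesis, had 11.6, 15.6, 15.1 and 13.4 CPM in Control 1 to 4, and 17.1 and 21.1 CPM in the libraries labelled Foxp1cKO 1 and 2, above every control in both libraries, at a log2 fold change of 0.46 ± 0.16. Polrmt went the other way, below every control in both libraries, at a log2 fold change of -0.26 ± 0.087. It had 27.2 and 26.8 CPM in Foxp1cKO 1 and 2, against a control mean of 32.4 CPM. At an unadjusted p under 0.05 in edgeR's test, 1 of the 12 regulators was higher and 1 was lower. All these lists share the same 6 libraries with the members.

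**Figure D5:**
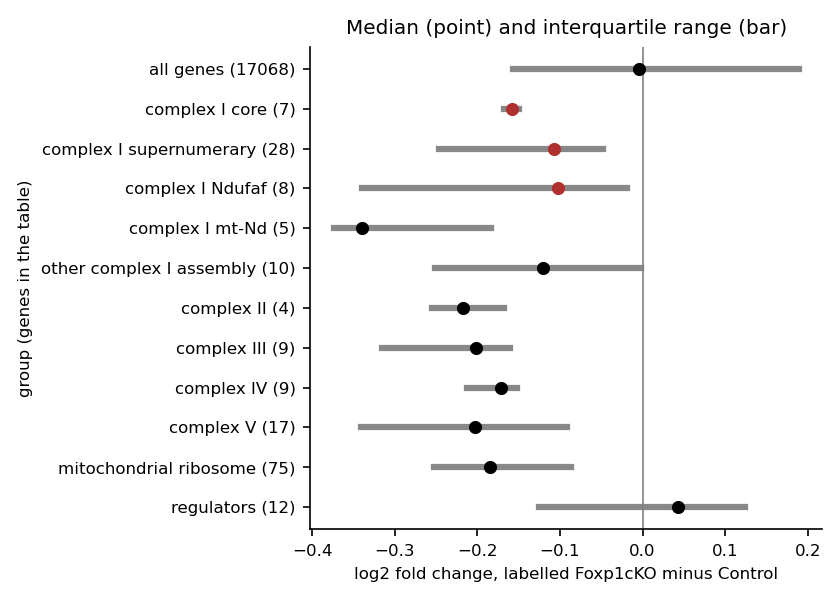
Points are the median and bars the interquartile range of the log2 fold changes (x axis, libraries labelled Foxp1cKO minus Control) in each group of genes (y axis, number of genes in the table in parentheses), with the complex I classes of nuclear genes in red. All groups of the respiratory chain and the mitochondrial ribosome have medians between -0.34 and -0.10, against -0.0044 for all genes and 0.043 for the regulators.

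Short transcripts and crowded loci are common among the members. The 10 members with an exon union of up to 1000 bases were all lower, with a median of -0.19. All genes of that length were lower in 50.4% of cases, with a median of -0.0059. In the longer length ranges, in rising order, 11 of 16, 11 of 12 and all 5 members were lower. Their medians were -0.15, -0.094 and -0.087. All genes of these ranges were lower in 54.5%, 53.5% and 48.2% of cases, with medians of -0.038, -0.023 and 0.010. Correcting each library for transcript length and GC content changed the median over all members to -0.12. A protein-coding gene started within 1000 bases on the other strand in 19 of 43 members (44.2%), against 14.99% of protein-coding genes in the table. Of the 17 such partners with a row, 12 were lower, with a median of -0.077, against -0.15 for their members.

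Exons of 17 members overlap those of another gene, 15 with a gene on the other strand and 3 with one on the same strand. Whether the counting used the strand is not given in the sources used here, so the neighbour may affect the counts there. All 17 were lower, 8 at an unadjusted p under 0.05, with a median of -0.17, whereas 20 of the 26 members with no overlap were lower, 5 at that threshold (Ndufaf4, Ndufaf8, Ndufb7, Ndufc1 and Ndufs5), with a median of -0.11. Ndufa11, Ndufab1, Ndufb4 and Ndufs6 also have annotated processed pseudogenes, a list that may not be complete. The authors used uniquely mapped reads, so reads that match a gene and its copy equally well can be missing. Ndufb1-ps, annotated as a noncoding gene and so outside the rule, had 31.5, 31.3, 28.9 and 34.97 CPM in Control 1 to 4, and 22.3 and 27.9 CPM in the libraries labelled Foxp1cKO 1 and 2, a log2 fold change of -0.33.

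In bulk tissue, fewer cells of a type and less RNA per cell cannot be told apart. Summed levels of 6 red cell markers were 968 to 3327 CPM in the controls and 3666 and 3928 CPM in Foxp1cKO 1 and 2, with all 6 genes higher and 3 at an unadjusted p under 0.05. Control 4, the highest library in 21 members, had 3327 CPM of these markers, the most of the controls. The 7 neuron markers analysed summed to 2798 to 5048 CPM in the controls, lowest in Control 4 and highest in Control 3, and to 3628 and 3797 CPM under the knockout label. The 7 radial glia markers analysed summed to 2087 to 2511 CPM in the controls and 2303 to 2352 CPM in the others. Of the neuron markers 5 were lower (median log2 fold change -0.20), none at an unadjusted p under 0.05. Of the radial glia markers 5 were higher (median 0.13), with 1 higher and 1 lower at that threshold. The 4 ventral telencephalon markers were all higher, none at that threshold. They summed to 157 to 561 CPM in the controls, and to 396 and 283 CPM in Foxp1cKO 1 and 2. The part of these cell types in the differences of the members was not tested.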

How the data were processed

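RNA was extracted with the Qiagen miRNeasy kit, libraries were made with the TruSeq Stranded RNA kit, and the authors aligned reads to mm10 with STAR (Gencode version 17) and counted them per gene with HTSeq 0.9.1 in union mode. The deposited values used are these raw counts for 17068 genes. A deposited table of transformed values was not used. Identifiers were matched to GENCODE M21 without their version (17047 of 17068 matched). Counts of all genes were fitted with edgeR 4.0.16 in R 4.3.3 (TMM scaling, quasi-likelihood test, group as the only term, Benjamini-Hochberg adjustment over all genes), since the labels give no litter. CPM are counts scaled to a library of 1000000 reads after TMM scaling, and log2 CPM used a prior count of 2. Class means and medians over members carry no test. No value column lacked a sample. In this design of 4 against 2 an exact rank test cannot go below a 2-sided p of 0.133, so no such test was run. Replicate libraries differed by a chi-square of 25.9 to 193 per gene, far above counting error, so none was a duplicate. A count of 3 corresponds to 0.0383 to 0.0599 CPM, well below every member, and covers counting error only. The fit was tested on simulated counts. Members, gene lists and comparisons were chosen with earlier results of these data known. Values per library are given for 6 core genes, for all assembly factors, for the 10 supernumerary genes with the smallest p and for the 3 with the highest log2 fold change. Ndufa3, Ndufa7 and Ndufa12 were added after their values were seen. Another core gene and a tissue marker are not reported here singly, the former being kept in counts and medians. Alternatives were DESeq2 1.42.0, limma 3.58.1, other scalings and filters, a length and GC correction, a replicate block and the omission of each library. Promoter windows came from RefSeq (GRCm38.p6).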

Additional observations from a re-analysis of the deposited data

Results flagged for a closer look

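Among 35 values examined in the 4 controls (30 members and 5 class means), 3 had a single control far from the other 3, where chance gives about 1 in 20. For Ndufaf2, Control 4 had 34.9 CPM against 28.6 to 28.9 CPM in the others, a gap of 0.954 of the whole range. Without Control 4 the log2 fold change of Ndufaf2 was 0.071 instead of -0.0038. For Ndufs5, Control 2 had 19.2 CPM against 17.6 to 17.8 CPM in the others, a gap of 0.856 of the range, and the libraries labelled Foxp1cKO lay below all 4 controls. For Ndufa7, Control 4 had 71.4 CPM against 61.9 to 63.0 CPM in the others, a gap of 0.892 of the range, and without Control 4 the log2 fold change was 0.066 instead of 0.015.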

How the results depend on the processing

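The median log2 fold change of all members stayed below 0 under all 14 alternatives tried. Leaving out 1 library at a time moved it between -0.25 and -0.086, with -0.30 to -0.073 for core, -0.22 to -0.091 for supernumerary and -0.22 to -0.074 for assembly genes. With 1 control left out, members lower at an unadjusted p under 0.05 in edgeR's test numbered 4 to 16, with 1 higher each time, and the share of all genes was not counted there. Members with the knockout label below every control numbered 18 to 31 with any 1 library left out, the highest without Foxp1cKO 2. That count can only stay or rise from the 17 with all libraries, so its range does not measure stability. The same holds for the share of all genes, 13.1% with all libraries, which was not counted with a library left out. None was called at an adjusted p under 0.05 in edgeR or limma, and DESeq2 called 2 (Ndufaf4 with an adjusted p of 0.0152 and Ndufv3 with 0.0339), while its calls over all genes numbered 503 against 26. With the replicate block, 6 members were lower at an unadjusted p under 0.05 and 0 genes of the table were called. Whether the numbers pair the samples could not be decided, and they were not taken to do so. With 2 libraries under the knockout label, 1 lies as far above their mean as the other lies below it. Over genes, the distance of Control 1 from the control mean thus had r = -0.198 with Foxp1cKO 1 and 0.198 with Foxp1cKO 2. The pooled value for equal numbers, r = -0.0975, cannot decide the question for that reason. The count of genes called over all genes ran from 2 to 96 when 1 library was left out.

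The log2 fold change of Ndufaf2, -0.0038 as reported, turned to 0.000575 with DESeq2's size factors, 0.012 with total counts, 0.00165 with a mean of at least 50 counts, 0.072 with the replicate block and 0.019 with the length and GC correction. With 1 library left out it ran from -0.11 to 0.083, that of Ndufaf1 from -0.19 to 0.051, that of Ndufs7 from -0.39 to 0.050 that of Ndufa6 from -0.00036 to 0.12, that of Ndufa7 from -0.17 to 0.17 and that of Ndufa12 from -0.050 to 0.096, and the cause was not tested. The replicate block left the members called at an adjusted p under 0.05 at 0. Class levels per kb in the controls were 50.5 (core), 37.4 (supernumerary) and 10.1 (assembly) with the longest transcript as length, and 50.5, 47.7 and 11.1 with the APPRIS principal transcript, an alternative chosen after seeing the data; shorter lengths raise every level. The lowest count of a member was 204 reads. Foxp1cKO 1, the shallowest library, was also the lowest library in 30 of 43 members and in 3225 of all 17068 genes, and the part of depth was not tested. The 2 libraries under the knockout label differ from each other, which limits every comparison here.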
